A study of Mus musculus with 16 samples.

Results

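The nuclear-encoded subunits of the mitochondrial respiratory chain were taken from the gene tables as the protein-coding genes whose symbols start with Ndufa, Ndufb, Ndufc, Ndufs or Ndufv and a number, are Sdha to Sdhd, or start with Uqcr, Cox4 to Cox8, or Atp5, with Ndufa4l2 left out. This gave 85 of the 54643 gene identifiers listed across the series. Complex I had 35 of them, complex II 4, complex III 8, complex IV 19 including Ndufa4, and complex V 17. The last 2, Atp5s and Atp5sl, carry the name of complex V but are not among its subunits. Of the 17 complex V rows, a second Atp5o row occurs in the KOIEC organoid table alone and holds no counts. The symbol rule used no measured value, and it missed at least 3 subunits, Cyc1, Ndufab1 and Usmg5.

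RNA-seq was done on the small intestine of C57BL/6 mice, to ask how loss of Cul4b, the scaffold of a cullin-RING ubiquitin ligase, changes the epithelium. Crypts came as 4 KOIEC samples (pVillin-Cre; Cul4b fn/Y, deletion in the intestinal epithelium) and 4 WT samples, which per the study carry the floxed allele without Cre. Organoids, epithelial cultures grown from crypts in Matrigel, came from 2 KOIEC and 2 WT samples, and a separate set came from 2 KOCAG samples (CAG-CreERT2; Cul4b fn/Y, a tamoxifen-inducible Cre under a broadly active promoter) and 2 WT samples. Per the study, this inducible model was treated with tamoxifen before sequencing. Whether the WT cultures of the KOCAG experiment received tamoxifen, whether samples were pooled from several mice, and whether organoid replicates came from separate mice are not given in the sources used here, so the p-values measure the spread between these samples, which may be partly technical. For most experiments of the study young adult mice were used, and the labels give no age for these samples.

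The respiratory chain sits in the inner mitochondrial membrane. Complexes I and II pass electrons from NADH and succinate to ubiquinone, complex III passes them on to cytochrome c, and complex IV hands them to oxygen. Complexes I, III and IV pump protons, and complex V, the ATP synthase, lets the protons back through its c ring to make ATP. Complexes I, III, IV and V also hold subunits encoded in mitochondrial DNA, and several subunits of complex IV exist as isoforms typical of liver, muscle or testis. In the small intestine, the stem cells at the crypt base and the absorptive enterocytes are known for active mitochondria, and Paneth cells lean more on glycolysis.

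Libraries held between 7348191 and 16881395 counts. Cul4b checked the labels: it lay at 31.7 to 38.3 CPM (counts of a gene relative to all counts of its library, scaled with TMM factors) in WT crypts and 0.848 to 2.21 in KOIEC crypts, at 73.2 to 83.2 and 1.69 to 1.76 in the KOIEC organoid experiment, and at 70.1 to 72.9 and 3.34 to 5.19 in the KOCAG experiment. The crypt libraries split by mitochondrial ribosomal RNA: WT replicate 1 and KOIEC replicates 1 to 3 were under 100 CPM, WT replicate 4 and KOIEC replicate 4 lay at 834 and 1080 CPM, and WT replicates 2 and 3 were above 2000 CPM, which puts both of the highest libraries in WT. The 5 pan-epithelial markers (Epcam, Vil1, Cdx2, Cdh1, Krt8) summed to 6990 to 9210 CPM in the crypts. Stromal, muscle and endothelial markers summed to at most 7.68 CPM in the crypts and at most 1.54 in the organoids. The 5 immune markers summed to 11.2 to 41.6 CPM in WT crypts and 17.4 to 81.2 in KOIEC crypts, with overlap. None of these 5 was called by edgeR in crypts, and 2 had an unadjusted p under 0.05. In the organoids their sum was at most 1.25 CPM. In bulk RNA, fewer cells of a type and less RNA per cell cannot be told apart.

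Most subunits were well expressed. Per kilobase of gene length, the highest WT levels belonged to Cox6a1 and Cox8a, small structural subunits of complex IV, and Atp5a1, the alpha subunit of the ATP synthase head. Cox6a1 reached 1190 CPM per kilobase in crypts, 671 in the WT organoids of the KOIEC experiment and 761 in those of the KOCAG experiment. The lowest tested levels were those of Ndufb2, an accessory subunit of complex I, with 4.37, 2.12 and 2.47 CPM per kilobase, of Cox6b2, the testis isoform of a complex IV subunit, with 5.62, 1.86 and 3.75, and of Atp5s with 6.51, 5.14 and 10.9. The muscle or tissue isoforms Cox4i2, Cox6a2, Cox7b2, Cox8b and Cox8c were at or near 0 everywhere, with Cox6a2 the highest of them at 0.08 to 0.965 CPM in the crypts, and they were not tested. The experiments are held in separate tables, so levels are set side by side and not tested between them.

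A pair of members stood apart in the crypt table. Ndufs3, a core subunit of the hydrophilic arm of complex I, had 0, 0, 1 and 0 counts in WT crypts and 0, 0, 0 and 1 in KOIEC crypts, against 698 to 1923 counts in the organoid libraries. The neighbouring genes Kbtbd4 and Celf1 were also at or near 0 in the 8 crypt libraries, with means of 0 and 0.0368 CPM, while Celf1 averaged 240 and 259 CPM in the KOIEC and KOCAG experiments. The flanking genes Mtch2 and Psmc3 had 144 and 184 CPM in the crypts. Uqcrc1, a core subunit of complex III, lay next to a similar stretch: Nckipsd and Celsr3 were at 0 in the crypts, Slc26a6 averaged 0.985 CPM against 198 and 137 in the organoids, and Uqcrc1 averaged 39.6 CPM (25.1 to 51.3) against 559 and 379. The crypt and KOCAG tables use the same gene positions and lengths. All 8 crypt libraries, WT and KOIEC, showed this, and its cause was not tested. Ndufs3 was thus not tested when the crypts were fitted alone, and the crypt values of Uqcrc1 are given with this limit.

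**Figure D1:**
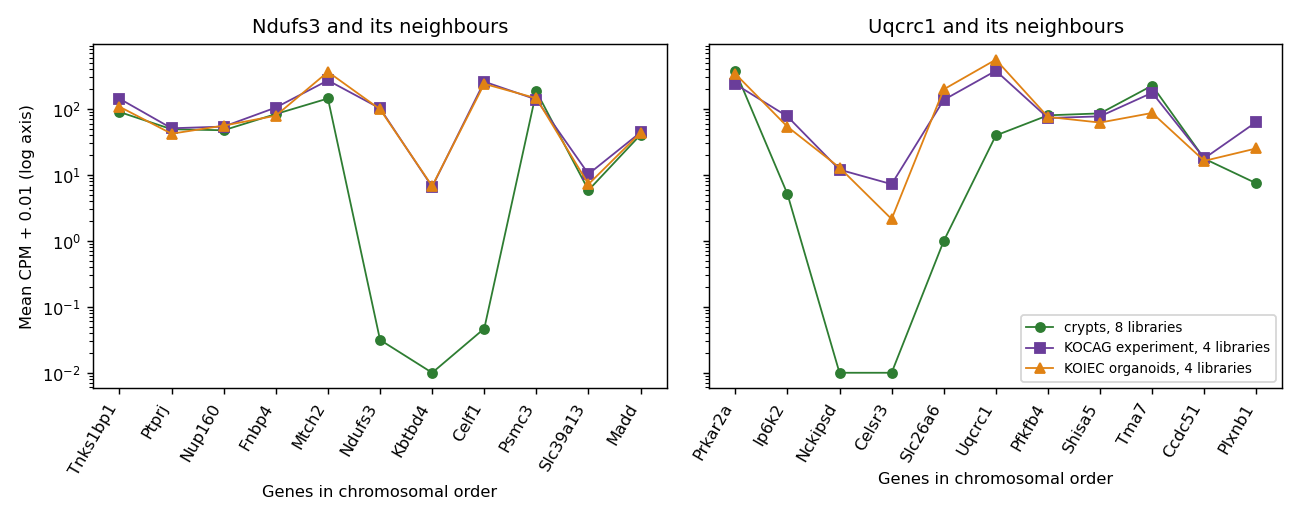
Mean CPM plus 0.01 on a log axis for Ndufs3 (left) and Uqcrc1 (right) and the 5 nearest genes on each side that reach 5 CPM in some experiment, in chromosomal order. Green circles are the 8 crypt libraries, orange triangles the 4 libraries of the KOIEC organoid experiment and purple squares the 4 of the KOCAG experiment; the crypts drop by orders of magnitude from Ndufs3 to Celf1 and from Ip6k2 to Slc26a6, Uqcrc1 stays below the organoids at 39.6 against 559 and 379 CPM, and Psmc3 lies close to them.

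The first comparison asked how the subunits stood in crypts without Cul4b. In the crypts 78 of 84 members were tested, and 0 were called at an adjusted p under 0.05 (edgeR quasi-likelihood test, Benjamini-Hochberg over 13427 genes), against 6.96% of all genes tested. That share rests on single libraries: 934 genes were called in all, but 20 without WT replicate 1, 3 without WT replicate 2, 11 without WT replicate 3, 2 without KOIEC replicate 2, 2 without KOIEC replicate 3 and 4 with the replicate number as a block, and 2468 without KOIEC replicate 1, 1864 without WT replicate 4 and 513 without KOIEC replicate 4. At an unadjusted p under 0.05 there were 9, or 5 in complex I, 1 in III, 2 in IV and 1 in V, against 31.9% of all genes. DESeq2 called 2, Cox7a1 and Cox6b2. The 95% interval of the fold change stayed within 2-fold either way for 76 of the 78, against 73.4% of all genes. The exceptions were the isoforms Cox6b2 and Cox7a1. The median log2 fold change was -0.06, beside -0.01 over all genes, with 53 members below 0; after a correction for gene length it was -0.02, beside -0.06 over all genes, so its side of the median of all genes turned. No member was higher in every KOIEC library than in every WT library, against 8.7% of all genes, and 6 were lower in every one, Ndufb7, Ndufa10, Ndufs8, Ndufa8, Ndufb5 and Cox6b2, against 8.79%.

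Among genes of like level, with a mean between 75.6 and 482 CPM, 9.28% of 2661 other genes were called and 0 of the 62 members in that range; this comparison was chosen after seeing the data. KOIEC replicate 4 was the highest of the 4 KOIEC libraries for 65 of the 78 members. Its median member was 0.15 above the WT mean on the log2 scale, where the other KOIEC libraries lay at -0.15, -0.15 and -0.06. Within the 4 libraries under 100 CPM of mitochondrial ribosomal RNA the median over members was -0.17, and between WT replicate 4 and KOIEC replicate 4 alone it was 0.07, so the sign of the median was not the same within these classes. Leaving out 1 library at a time gave -0.12 to 0.02, the last without WT replicate 4, and the number of called members became 3 without WT replicate 4 and 2 without KOIEC replicate 4.

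In complex I, 27 of 34 tested subunits were below 0 and the median was -0.10, both for the 6 tested core subunits (-0.09) and for the 28 accessory ones (-0.10). Ndufa2, an accessory subunit, was lowest. It had 104, 99.2, 112 and 107 CPM in WT and 76.5, 63.6, 68.7 and 114 in KOIEC crypts, a log2 fold change of -0.39 ± 0.17 (SE) with an adjusted p of 0.154. KOIEC replicate 4 was the highest of the 8 libraries, and without it the adjusted p was 0.0359; over all libraries left out in turn it ran from 0.0359 to 0.351. Ndufb7, an accessory subunit on the intermembrane space side, was picked after its values were seen. It had 166, 154, 156 and 146 CPM against 126, 113, 132 and 143, so that the groups did not overlap. Its log2 fold change was -0.27 ± 0.10 with an adjusted p of 0.0973. Ndufa6 was highest, with 116, 101, 96.7 and 127 CPM against 108, 111, 122 and 153, and its groups overlapped (0.16 ± 0.14, adjusted p 0.429).

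Complex II was the only complex whose members were all above 0, by 0.10 to 0.18. Sdha, its flavoprotein, had 795, 836, 768 and 926 CPM in WT and 827, 883, 1077 and 989 in KOIEC crypts (0.18 ± 0.13, adjusted p 0.332), with overlapping groups. Sdhc, a membrane anchor, had the smallest difference, 0.10 ± 0.12, and its interval ran from -0.17 to 0.36; without WT replicates 2 and 3 it was -0.01. None of the 4 passed the test.

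In complex III the extremes were Uqcr10, a small subunit, and Uqcrfs1, the Rieske iron-sulfur protein. Uqcr10 had 250, 236, 235 and 263 CPM in WT and 210, 163, 188 and 254 in KOIEC crypts (-0.27 ± 0.14, adjusted p 0.202). Uqcrfs1 went the other way, with 300, 283, 285 and 360 CPM against 298, 351, 396 and 419 (0.25 ± 0.14, adjusted p 0.228). Neither passed the test, and the complex had a median of -0.05.

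Complex IV held the widest spread, because of its isoforms, while its ubiquitous subunits stayed close to 0. Cox4i1 had a log2 fold change of -0.13, Cox6a1 -0.01, Cox6b1 -0.03, Cox7a2 0.06, Cox7b 0.08, Cox8a -0.12 and Ndufa4 -0.15, each with an interval within 0.5 of 0 on the log2 scale; the signs of Cox6a1, Cox7a2 and Cox7b changed with the scaling. Cox6b2 was below all of these, with 7.16, 5.56, 6.96 and 5.23 CPM in WT and 2.75, 2.52, 1.17 and 4.78 in KOIEC crypts. The groups did not overlap, and the log2 fold change was -1.14 ± 0.35 with an interval from -1.93 to -0.36, an unadjusted p of 0.00916 and an adjusted p of 0.0679. Leaving out 1 library at a time moved the adjusted p between 0.0444 and 0.168, the lowest without KOIEC replicate 4.

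Cox7a1, the isoform known from heart and muscle, had 49.5, 27.2, 22.1 and 65.4 CPM in WT and 50.1, 64.8, 83.7 and 107 in KOIEC crypts. The 2 WT libraries with the most mitochondrial ribosomal RNA were lowest, and the groups overlapped. The log2 fold change was 0.89 ± 0.35, with an interval from 0.11 to 1.68 and an adjusted p of 0.117, which became 0.0445 without WT replicate 4 (0.0445 to 0.253 over all libraries left out). The stromal, muscle and endothelial markers summed to 5.23 to 7.68 CPM in WT and 1.37 to 4.69 in KOIEC crypts, and 0 of the 3 tested were called by edgeR (0 at an unadjusted p under 0.05). The 7 enterocyte markers summed to 1900 to 8200 CPM in WT and 6730 to 15400 in KOIEC crypts and the 5 stem cell markers to 1490 to 2340 and 940 to 1510. The part of these cell types in the values of Cox7a1 was not tested.

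In complex V, 11 of 16 subunits were below 0. Atp5g2, one of the genes for the c subunit, had 318, 279, 268 and 184 CPM in WT and 214, 208, 199 and 162 in KOIEC crypts. WT replicate 4 fell among the KOIEC libraries. The log2 fold change was -0.42 ± 0.17 with an adjusted p of 0.125, or 0.0323 without WT replicate 4 (0.0323 to 0.27 over all libraries left out). Atp5f1, in the peripheral stalk, was highest with 453, 446, 439 and 508 CPM against 461, 466, 522 and 578 (0.13 ± 0.11, adjusted p 0.432).

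**Figure D2:**
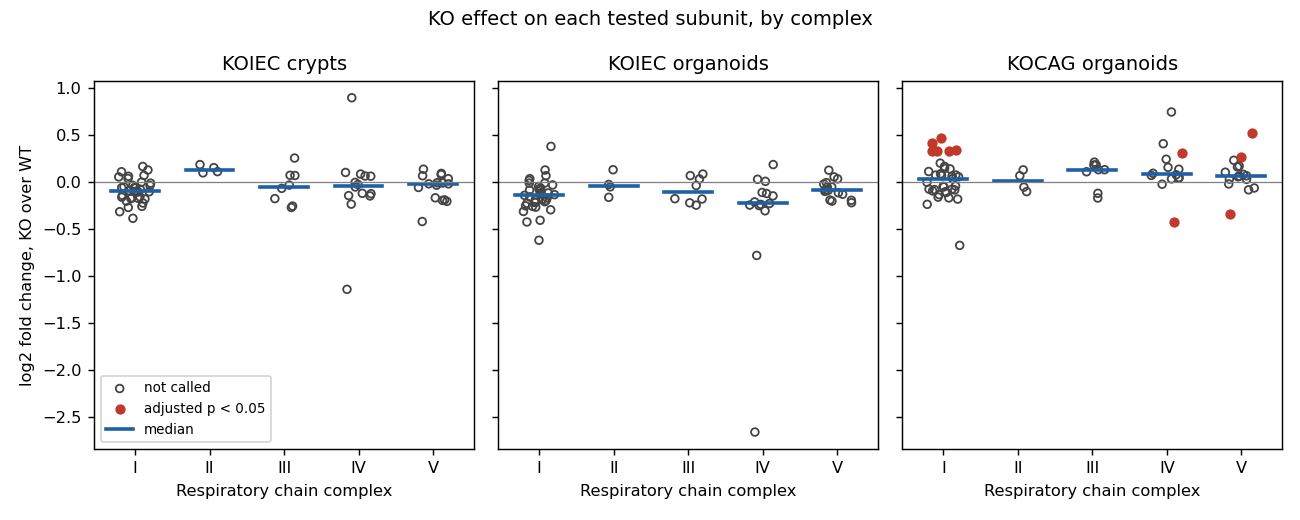
Log2 fold change of KO over WT (y axis) for each tested subunit of complexes I to V (x axis) in KOIEC crypts, KOIEC organoids and KOCAG organoids. Circles are single genes, filled red where the adjusted p was under 0.05, and blue bars are medians; most circles lie within 0.5 of 0, the isoform Cox6b2 is the lowest point at -1.14 in crypts and -2.66 in KOIEC organoids, and red points occur in KOCAG organoids alone.

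The second comparison put the same deletion in culture. In the KOIEC organoids 79 of 85 members were tested and 0 were called by edgeR, against 0.00717% of the 13938 genes tested, which is Cul4b alone. DESeq2 also called 0. At an unadjusted p under 0.05 there were 2 members, Ndufa3 and Cox6b2, against 4.66% of all genes. The spread between the 2 libraries of a group was wide here, so 73 of 79 intervals stayed within 2-fold, against 49.3% of all genes. With 63 of 79 members below 0, the median was -0.12, beside -0.01 over all genes, where 51.2% were below 0. The members are short, with a median length of 1552 bases against 3930 for all genes tested. After a correction for gene length the median was -0.03, beside 0.02 over all genes, so the members stayed below. No set test was made on this shift.

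By complex the medians were -0.14 for I, -0.04 for II, -0.11 for III, -0.22 for IV and -0.09 for V. Ndufa3, an accessory subunit of complex I, was the lowest of its complex with 58.2 and 56.7 CPM in WT against 32.4 and 42.4 in KOIEC organoids (-0.62 ± 0.20, unadjusted p 0.0274, adjusted p 0.856). Both KOIEC libraries were below both WT libraries, as in 30 of the 79 tested members and 2708 of all 13938 genes tested. Ndufa12, another accessory subunit, had the highest fold change of complex I only through 1 library: it had 30.3 and 27.4 CPM in WT and 58.7 and 16.3 in KOIEC organoids (0.38 ± 0.60). Without KOIEC replicate 1 it was -0.83, and over the libraries left out in turn it ran from -0.83 to 1.02.

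In complex II, Sdhb, the iron-sulfur subunit, was lowest at -0.16 and Sdhd, a membrane anchor, highest at 0.13. In complex III the extremes were Uqcrq, at -0.25, and Uqcrfs1, at 0.08. Cox5a was the highest of complex IV with 0.18, and in complex V Atp5mpl was lowest at -0.22 and Atp5g3 highest at 0.12. None of these 7 passed the test, and their intervals all included 0. Cox6b2 had 1.21 and 2.92 CPM (21 and 44 counts) in WT and 0.301 and 0.338 (5 and 5 counts) in KOIEC organoids, a log2 fold change of -2.66 ± 0.67 with an interval from -4.39 to -0.93 and an adjusted p of 0.856. Cox7a1 had 9.62 and 19.0 CPM against 3.61 and 13, with overlapping groups and an interval from -2.56 to 0.99. Stem cell markers summed to 2430 to 3590 CPM in WT and 336 to 1470 in KOIEC organoids. Goblet cell markers summed to 1490 to 1750 and 1600 to 6410, with overlap, and Paneth cell markers to 1820 to 3200 and 1290 to 1810. None of these markers was called by edgeR, and their part in the subunit values was not tested.

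The third comparison used the inducible deletion. Of 84 members 79 were tested in KOCAG organoids and 11 were called, against 31.5% of the 13598 genes tested. Of these 9 were higher, against 18.1% of all genes, and 2 lower, against 13.4%. At an unadjusted p under 0.05 there were 17, against 43% of all genes. None of the 11 changed 2-fold. Among genes of like level, between 50.7 and 311 CPM, 37.2% of 4242 other genes were called and 8 of 63 members; this range was also chosen after seeing the data. The median over members was 0.06, beside 0.00 over all genes, and turned to -0.02 after a correction for gene length, where the median of all genes was -0.07. The count moved with the libraries used, though leaving 1 out keeps a lone library in a group. DESeq2 called 6 of 82 members, beside 2554 of 26255 genes. With all 16 libraries in 1 fit over 15585 genes 0 members were called. In that fit 477 genes were called in all, against 4278 in the separate fit.

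The 6 called subunits of complex I were all accessory subunits, and all were higher. Ndufa1, a membrane-anchored subunit, had 54.7 and 46.5 CPM in WT and 72.0 and 67.8 in KOCAG organoids, a log2 fold change of 0.46 ± 0.10 with an adjusted p of 0.00767. Ndufs5, on the intermembrane space side, had 41.2 and 39.1 CPM against 49.2 and 57.5 (0.42 ± 0.11, adjusted p 0.0169). Ndufa11, a membrane subunit, had 48.3 and 43.4 CPM against 59.2 and 56.7 (0.34 ± 0.10, adjusted p 0.0280). In each of these 3 the KOCAG libraries lay above both WT libraries. That was common in this experiment: it held for 32 of the 79 tested members and 4824 of all 13598 genes tested. The reverse held for 21 members and 4657 genes.

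Ndufb6, an accessory subunit of the membrane arm, had 57.0 and 59.2 CPM in WT against 74.1 and 72.0 in KOCAG organoids (0.33 ± 0.09, adjusted p 0.0169). Ndufa13, also known as GRIM-19, had 69.1 and 66.6 CPM against 83.5 and 86.3 (0.32 ± 0.08, adjusted p 0.0155). Ndufc1, named here to complete the 6, had 46.4 and 51.7 CPM against 61.4 and 61.5 (0.33 ± 0.10, adjusted p 0.0278). All 3 were again free of overlap. None of the 7 core subunits was called, and their log2 fold changes ran from -0.10 to 0.05 with a median of -0.04. The median of the 28 accessory subunits was 0.07. Whether core and accessory subunits differ was not tested. The lowest value of complex I was that of Ndufa12, with 22.9 and 60.4 CPM in WT and 26.7 and 25.3 in KOCAG organoids (-0.67 ± 0.33, adjusted p 0.148). It rested on WT replicate 2: without that library the log2 fold change was 0.18, and without WT replicate 1 it was -1.23.

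Complexes II and III had no called subunit. In complex II, Sdha was lowest at -0.10 and Sdhd highest at 0.13. In complex III the core subunits marked both ends. Uqcrc2 had 295 and 309 CPM in WT and 263 and 273 in KOCAG organoids (-0.17 ± 0.08, adjusted p 0.144), and Uqcrc1 had 351 and 352 CPM against 403 and 410 (0.21 ± 0.08, adjusted p 0.0824). The groups did not overlap in either gene, which was common among all genes of this experiment.

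In complex IV, Cox7a2l and Ndufa4 were called, in opposite directions. Cox7a2l had 250 and 234 CPM in WT and 177 and 183 in KOCAG organoids (-0.43 ± 0.08, adjusted p 0.00351). With each library left out in turn its log2 fold change ran from -0.48 to -0.39. Ndufa4, named after complex I but now placed in complex IV, had 167 and 169 CPM against 213 and 203 (0.31 ± 0.08, adjusted p 0.0161). Cox6b2 was higher in both KOCAG libraries, at 6.39 and 7.5 CPM against 4.82 and 3.50 in WT, but not called (0.74 ± 0.27, interval 0.14 to 1.34, adjusted p 0.0590). Cox7a1 had 15.7 and 11.9 CPM against 21.7 and 15.4, with overlapping groups (0.41 ± 0.21, adjusted p 0.163).

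Complex V held the highest called member. Atp5k, subunit e, which takes part in the dimer of the ATP synthase, had 39.4 and 33.4 CPM in WT and 59.2 and 46.3 in KOCAG organoids (0.52 ± 0.14, adjusted p 0.0165). The c subunit is encoded by 3 genes whose mature protein is the same, and they did not move together. Atp5g3 rose, with 398 and 407 CPM against 489 and 480 (0.27 ± 0.08, adjusted p 0.0374). Atp5g2 fell, with 196 and 186 CPM against 148 and 153 (-0.34 ± 0.08, adjusted p 0.0102). Atp5g1 had 147 and 148 CPM against 146 and 163 (0.06 ± 0.09, adjusted p 0.595). Reads can be shared between these genes to the extent that their coding sequences are alike, and how the counting treated such reads is not given in the sources used here.

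**Figure D3:**
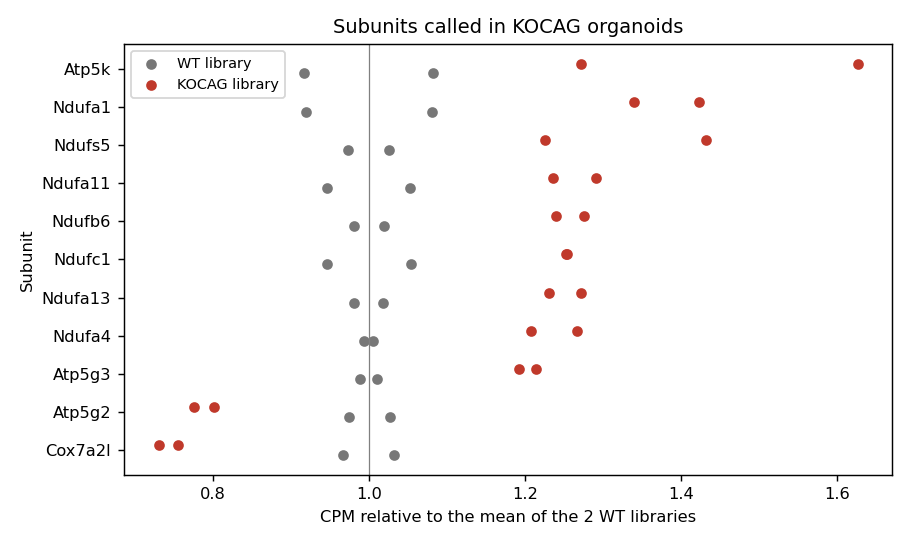
CPM of the 11 called subunits in each library of the KOCAG experiment, divided by the mean of the 2 WT libraries (x axis), 1 subunit per line (y axis). Grey points are WT and red points KOCAG libraries; red lies to the right of grey in 9 subunits and to the left in Atp5g2 and Cox7a2l, and no subunit reaches 2 times or 0.5 times the WT mean.

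Just outside the threshold in KOCAG organoids were Ndufb11, at -0.24 with an adjusted p that rounds to 0.05, Atp5s at -0.43 (adjusted p 0.0521), Atp5e, the epsilon subunit, at 0.23 (adjusted p 0.0547) and Cox5a at 0.24 (adjusted p 0.0621), which were picked after their values were seen. In the same organoids 6 of 7 enterocyte markers were called higher, their sum going from 3950 to 4350 CPM in WT to 9220 to 11600, as were 4 of 5 Paneth cell markers, 4 of 5 goblet cell markers and 5 of 5 enteroendocrine markers, and 2 of 5 stem cell markers were called lower. The part of this shift in the subunit values was not tested.

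Nuclear respiratory factor 1 (NRF1) and factors of the ETS family such as GABP are known to bind promoters of respiratory chain genes, so the promoters of the members were read for their core motifs. RefSeq promoter windows (GRCm38.p6, 250 bases before to 50 after the start) were matched for 69 of the 85 members. Where a symbol had several windows, the 1 with the lowest position was kept, which on the minus strand is the most downstream start. Searched on both strands, the NRF1 core motif GCGCATG occurred in 13 of the 69 (18.8%), against 3.99% of all 27025 windows. The ETS motif CCGGAAG occurred in 16 of 69 (23.2%), against 9.08% of all windows, and both in 6 (8.7%), against 0.685%. The called members with the NRF1 motif were Atp5g2, Atp5k, Ndufa11 and Ndufb6. The median GC content was 57.3% in the members and 52.7% in all windows. A match is a description of these letters and not a bound site. The Atp5g2 window printed below lies inside the annotated gene, which starts at position 102672352 on the minus strand. The 4 windows printed are those of 3 called members in which the NRF1 motif occurs on both strands at once, its matches overlapping by 4 bases, of which Atp5k and Ndufa11 were higher and Atp5g2 lower in KOCAG organoids, and of Cox6b2, the member with the widest range of fold changes, which holds neither motif. Capitals mark the matches, and the ETS match does not overlap the NRF1 matches. They stand 5′ to 3′ on the strand of the gene, at chr5:108434350-108434649 (minus strand) for Atp5k, chr17:56717512-56717811 (plus strand) for Ndufa11, chr15:102670998-102671297 (minus strand) for Atp5g2 and chr7:4753045-4753344 (minus strand) for Cox6b2.
Atp5k: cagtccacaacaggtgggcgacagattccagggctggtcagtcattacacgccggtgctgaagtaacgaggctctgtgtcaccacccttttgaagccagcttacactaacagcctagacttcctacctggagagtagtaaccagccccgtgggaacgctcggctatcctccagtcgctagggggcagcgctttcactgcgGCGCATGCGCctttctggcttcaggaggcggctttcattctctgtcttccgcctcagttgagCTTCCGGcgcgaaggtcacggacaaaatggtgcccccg
Ndufa11: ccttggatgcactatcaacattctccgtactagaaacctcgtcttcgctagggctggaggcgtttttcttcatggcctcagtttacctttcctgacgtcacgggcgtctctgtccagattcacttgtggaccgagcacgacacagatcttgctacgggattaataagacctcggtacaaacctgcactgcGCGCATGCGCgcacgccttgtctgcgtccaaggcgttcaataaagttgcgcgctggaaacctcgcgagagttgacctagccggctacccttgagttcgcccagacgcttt
Atp5g2: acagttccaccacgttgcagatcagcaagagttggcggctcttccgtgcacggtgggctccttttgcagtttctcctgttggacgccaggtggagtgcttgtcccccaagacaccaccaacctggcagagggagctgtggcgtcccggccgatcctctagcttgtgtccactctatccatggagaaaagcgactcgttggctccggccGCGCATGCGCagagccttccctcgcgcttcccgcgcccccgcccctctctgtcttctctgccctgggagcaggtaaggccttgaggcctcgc
Cox6b2: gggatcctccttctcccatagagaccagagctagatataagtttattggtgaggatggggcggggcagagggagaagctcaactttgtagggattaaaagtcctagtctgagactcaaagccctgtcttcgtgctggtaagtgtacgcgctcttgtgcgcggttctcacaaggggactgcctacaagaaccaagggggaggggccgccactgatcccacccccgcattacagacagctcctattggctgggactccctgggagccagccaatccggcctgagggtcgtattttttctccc

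The effect of the deletion on each member was then compared between the experiments with interaction terms in 1 fit of all 16 libraries. None of the members was called by edgeR for KOIEC organoids against crypts, where 0.00642% of 15585 genes were called, for KOCAG organoids against crypts (0.372%), or for KOCAG against KOIEC organoids (0.385%). At an unadjusted p under 0.05 there were 1, 9 and 7 members, against 6.96%, 14.4% and 10.9% of all genes. This fit also held Ndufs3, which has almost no counts in crypts. Its differences against crypts were -0.19 ± 1.26 for KOIEC organoids and -0.07 ± 0.94 for KOCAG organoids. Those of Uqcrc1 carry the limit of its crypt values given above. Cox6b2 had the smallest p over the 3 pairs. Its log2 fold change, at -1.14 in crypts and -2.66 in KOIEC organoids but 0.74 in KOCAG organoids, differed between the organoid models by 3.37 ± 0.79 (unadjusted p 0.000799, adjusted p 0.111), and without KOIEC crypt replicate 3 the adjusted p was 0.0474. Its levels are low, at 5 to 44 counts per library in the KOIEC organoid experiment. Within KOCAG against KOIEC organoids the next smallest p belonged to Ndufs5 with 0.71 (adjusted p 0.311) and Ndufa13 with 0.53 (adjusted p 0.342). For KOCAG organoids against crypts it was Cox6b2 with 1.87 (adjusted p 0.174), then Atp5k with 0.71 (unadjusted p 0.00906, adjusted p 0.19).

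Atp5g2 was below 0 in all 3 comparisons, at -0.42, -0.20 and -0.34, and was called in the last of them. Cox7a2l was at -0.24, 0.01 and -0.43. Its KOIEC organoid libraries lay far apart, at 199 and 292 CPM, on either side of the WT libraries at 236 and 253. Of the 78 members tested in every experiment 14 were below 0 and 4 above 0 in all 3, each against its own WT libraries. Over all genes 51.1%, 51.2% and 49.9% were below 0 in crypts, KOIEC organoids and KOCAG organoids. How many genes shared a sign in all 3 was not counted, so the 14 and 4 have no background beside them.

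**Figure D4:**
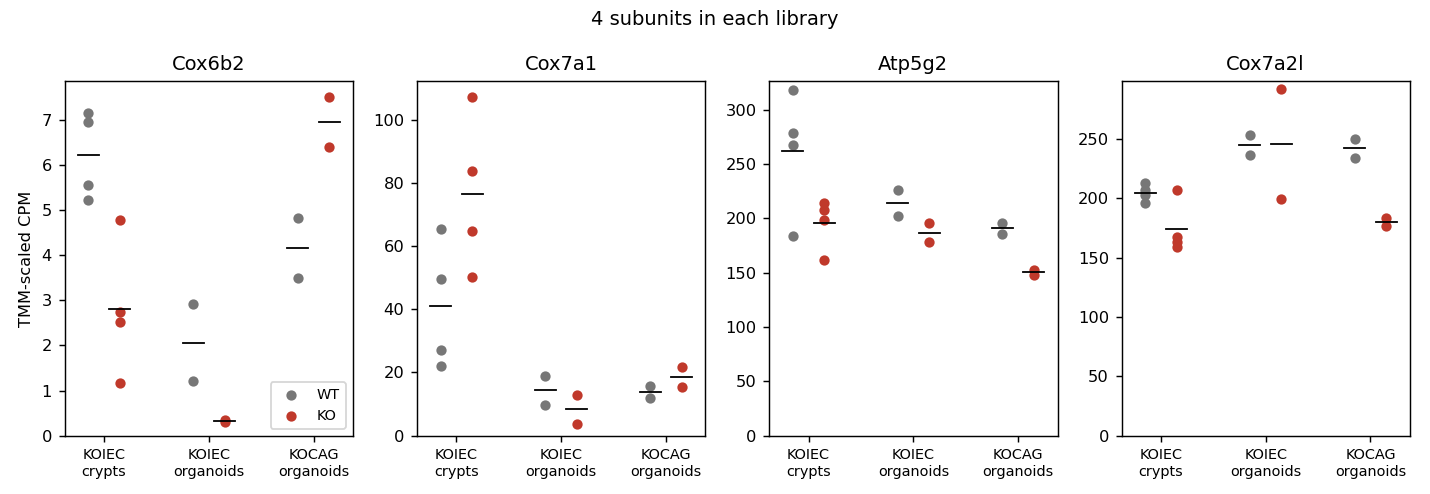
TMM-scaled CPM (y axes start at 0) of Cox6b2, Cox7a1, Atp5g2 and Cox7a2l in every library of the 3 experiments (x axis). Grey points are WT and red points KO libraries, and black bars are group means; Cox6b2 is lower in KO in crypts and KOIEC organoids and higher in KOCAG organoids, and Atp5g2 means are lower in KO throughout.

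As a share of all counts, the nuclear-encoded subunits took 2.46% ± 0.10 (SD, n = 4) in WT crypts and 2.29% ± 0.23 (n = 4) in KOIEC crypts (exact permutation test, two-sided, p = 0.229). KOIEC replicate 4 had 2.63% and the other 3 had 2.13% to 2.21%, against 2.35% to 2.56% in WT. In the KOIEC organoid experiment the share was 1.75% and 1.92% in WT and 1.65% and 1.72% in KO, and in the KOCAG experiment 1.60% in both WT libraries and 1.57% and 1.63% in KO. With 2 against 2 the exact test cannot go below 0.333. The 13 mitochondrially encoded mRNAs took 4.73% to 6.10% in WT and 5.25% to 8.24% in KOIEC crypts (exact p = 0.514), with overlap, 3.68% and 4.78% against 3.44% and 5.45% in the KOIEC organoid experiment, and 3.25% and 3.29% against 3.10% and 3.11% in the KOCAG experiment.

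**Figure D5:**
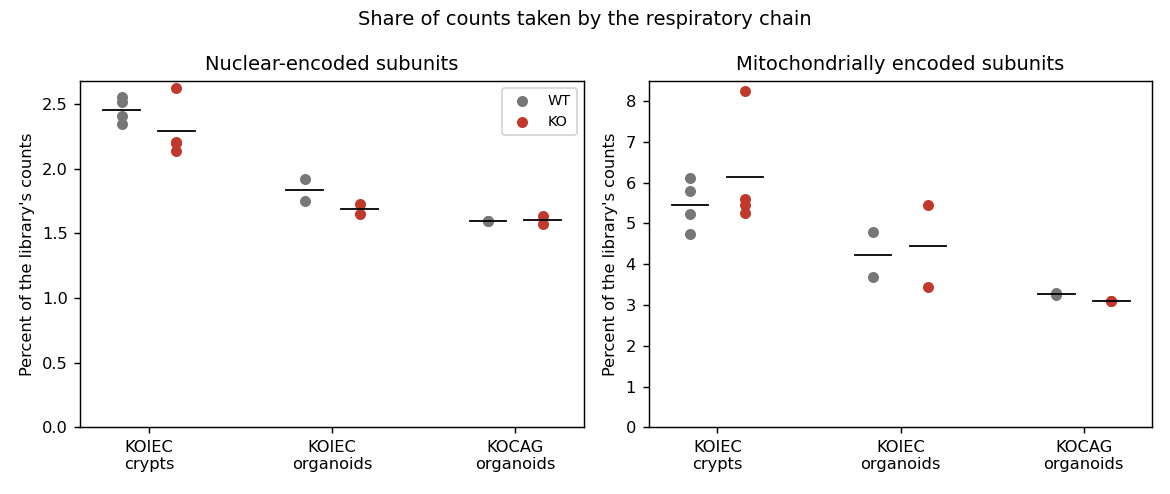
Percent of a library's counts (y axes) on the nuclear-encoded subunits (left) and on the 13 mitochondrially encoded mRNAs (right) in the 3 experiments (x axes). Points are libraries, grey for WT and red for KO, and bars are group means; the groups overlap in crypts in both panels, with 1 KOIEC crypt library at 2.63% on the left and another at 8.24% on the right.

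The genes that work with the subunits were read from lists of known genes. Over all 13427 genes tested in crypts, 577 were called higher and 357 lower. In KOCAG organoids 18.1% of all genes were called higher and 13.4% lower. Of the mitochondrially encoded subunits 0 of 13 were called in crypts or in KOIEC organoids by edgeR (0 and 1 at an unadjusted p under 0.05), with medians of 0.29 and 0.15, and 1 of 13 was called lower in KOCAG organoids, mt-Nd3 of complex I, from a mean of 63.7 to 46.8 CPM (-0.45, adjusted p 0.0148). Of the 3 missed subunits named above, 2 were called higher in KOCAG organoids: Usmg5, a small ATP synthase subunit, from 144 to 186 CPM (0.37, adjusted p 0.00654), and Cyc1, cytochrome c1 of complex III, from 283 to 336 CPM (0.25, adjusted p 0.0474). Of the assembly factors 2 of 46 were called lower in crypts, Ndufaf2 (-0.48, adjusted p 0.0475) and Nubpl (-0.78, adjusted p 0.0479), both for complex I, 0 of 47 in KOIEC organoids, and 1 of 47 lower in KOCAG organoids, Ndufaf7 (-0.50, adjusted p 0.0262).

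Among 17 electron carriers and enzymes of ubiquinone synthesis, 1 was called higher and 2 lower in crypts, and 2 higher and 5 lower in KOCAG organoids. Cycs, cytochrome c, rose there from 134 to 228 CPM (0.77, adjusted p 0.000115), and Coq8a, needed for ubiquinone synthesis, fell from 125 to 67.0 CPM (-0.90, adjusted p 8.95e-05). In crypts the called carriers included Gpd2, the mitochondrial glycerol-3-phosphate dehydrogenase, from 156 to 255 CPM (0.71, adjusted p 0.0413). Of 13 nuclear regulators, Ppargc1a, a coactivator of mitochondrial biogenesis, was the 1 called in crypts, from 24.6 to 54.8 CPM (1.15, adjusted p 0.0499). In KOCAG organoids Esrra, a nuclear receptor that works with it, was called higher, from 147 to 199 CPM (0.43, adjusted p 0.00385), and 4 regulators were called lower, among them Tfam, which packages mitochondrial DNA, from 98.9 to 66.2 CPM (-0.58, adjusted p 0.00148).

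Of 17 genes of the TCA cycle and pyruvate dehydrogenase 0 were called in crypts and in KOIEC organoids (6 and 1 at an unadjusted p under 0.05), and 4 were higher and 2 lower in KOCAG organoids. Of the 3 ADP/ATP and phosphate carriers 1 was called, Slc25a4, higher in KOCAG organoids (0.43, adjusted p 0.00788). In the same organoids 10 of 15 genes of glycolysis were called lower, against 13.4% of all genes, with a median of -0.48, among them Pgk1, from 1370 to 685 CPM, and Gpi1, from 1210 to 666 CPM (-0.86, adjusted p 0.000133), where 8 to 11 were lower with a library left out. In crypts 0 of 15 were called and in KOIEC organoids 0 of 16, and the difference between the experiments was not tested. The mitochondrial ribosomal proteins, also nuclear-encoded, had 11 of 77 called lower in crypts (median -0.27), against 357 of all 13427 genes. In KOIEC organoids 0 of 77 were called (median -0.20). In KOCAG organoids 7 were lower, against 13.4% of all genes, and 4 higher, against 18.1% (median -0.01). The cytosolic ribosomal proteins had 37 of 80 called lower in crypts (median -0.56), 0 of 80 in KOIEC organoids (median -0.29), and 70 lower and 1 higher in KOCAG organoids (median -0.56). The difference between these lists and the respiratory chain subunits was not tested.

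The lists were also counted with libraries left out, which was chosen after seeing the data, and none of the crypt calls in them held in every fit. Without WT replicate 1, 2 or 3, without KOIEC replicate 2 or 3, and with the replicate block, 0 genes were called in each of the lists of assembly factors, carriers, regulators and ribosomal proteins, and over all genes 1 was called lower. Without WT replicate 4, KOIEC replicate 1 and KOIEC replicate 4, cytosolic ribosomal proteins had 32, 59 and 17 called lower and mitochondrial ones 14, 25 and 4. In KOCAG organoids, leaving out 1 library gave 58 to 73 lower cytosolic ribosomal proteins, 3 to 13 lower and 0 to 10 higher mitochondrial ones, and 1 to 4 lower regulators. With all 16 libraries in 1 fit, 10 cytosolic ribosomal proteins and 3 genes of glycolysis were lower there.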

How the data were processed

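RNA-seq of 16 libraries in 3 experiments was used. The deposited tables, 1 per experiment, hold raw, unscaled counts for each gene, which per the labels the authors made with HISAT2 2.0.5 and featureCounts 1.5.0-p3. The genome build, annotation release, strand use and treatment of multimapping reads are not given in the sources used here. Gene positions were the same as in GENCODE M21 (GRCm38) for 95.2% of shared genes in the crypt and KOCAG tables and 98.3% in the KOIEC organoid table. Gene lengths are those of the tables. Of the 85 members 34 overlap another gene, 22 of them a protein-coding one, and without strand their reads cannot be told apart. Totals per library were 9311734 to 13479974 counts in crypts, 15006730 to 16881395 in the KOIEC organoid experiment and 7348191 to 10462275 in the KOCAG experiment.

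KO was compared with the WT libraries of the same experiment in separate fits of edgeR 4.0.16 (R 4.3.3), using filterByExpr, TMM factors and quasi-likelihood F tests, and p-values were adjusted over all genes tested (Benjamini-Hochberg). A gene was called at an adjusted p under 0.05. Errors of log2 fold changes are standard errors, and intervals cover 95%. Fold changes carry the prior count of the fit. Differences between experiments were tested as interactions in 1 fit of 16 libraries over 15585 genes. Shares of counts were compared by exact permutation. The fits were tested on simulated counts. The alternatives were other size factors, total counts, other low-count filters, DESeq2 1.42.0, a 2-fold limit, a replicate block, all libraries in 1 fit, classes of mitochondrial ribosomal RNA (bounds at 100 and 2000 CPM), a loess correction for gene length (span 0.5) and leaving out each library.

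The members and lists were chosen with earlier results of these data known. Named with values were the highest and lowest member of each complex in each comparison, members called in crypts or KOIEC organoids, members with a 2-fold change, the 5 highest and 5 lowest called in KOCAG organoids, the isoforms of complex IV, the c subunit genes, Ndufb4 and Ndufa4, the 3 highest and 3 lowest by level, and at most 2 called genes of any other list. Promoter windows are those of RefSeq on GRCm38.p6.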

Additional observations from a re-analysis of the deposited data

Results flagged for a closer look

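In groups of 4 crypt libraries, a value was singled out where its gap to the nearest library, over the range of the group, exceeded Dixon's 95% limit. This held for 5 of 56 groups examined, where chance gives about 1 in 20. KOIEC crypt replicate 4 stood above the other 3 KOIEC libraries for Cox7a2, with 285 CPM against 185 to 197, for Cox7a2l, with 207 CPM against 159 to 167, and for Ndufb4, with 95 CPM against 67.6 to 69.8. The same library gave 2.63% of its counts to the nuclear-encoded subunits, against 2.13% to 2.21% in the others. KOIEC crypt replicate 3 gave 8.24% of its counts to mitochondrially encoded mRNAs, against 5.25% to 5.61% in the others. No difference between experiments in the effect on a member passed the test.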

How the results depend on the processing

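The counts of called subunits were small and moved with the settings. In crypts, 0 became 1 without a low-count filter (Cox6b2) and 1 with all 16 libraries in one fit (Ndufs6), 2 with DESeq2, and 0 to 3 when each library was left out, the 3 without WT replicate 4 (Atp5g2, Ndufs6, Cox7a1). In KOIEC organoids it was 1 without the filter (Cox6b2), where 223 of 24322 genes were called in all. In KOCAG organoids, 11 became 0 with a 2-fold limit, 6 with DESeq2, 0 with all libraries in one fit and 1 to 15 with a library left out. For differences between experiments it was 0 to 1 with a library left out. The median over members turned to 0.0748 within the middle class of crypt libraries. After the length correction it was -0.0334 in KOIEC organoids, beside 0.01665 over all genes, and -0.00334 beside 0.0356 with the replicate block as well. In KOCAG organoids it was -0.0216 after the correction, beside -0.06607 over all genes, and -0.0223 beside -0.06627 with the block. There it ran from 0.0252 to 0.0762 with a library left out. So the corrected medians stayed below that of all genes in KOIEC organoids and above it in KOCAG organoids. The causes were not tested.

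The replicate block gave 0 called members in crypts, 0 in KOIEC organoids and 16 in KOCAG organoids, with medians of -0.06, -0.13 and 0.06, and turned Cox7a2l in KOIEC organoids to -0.0202. Same-numbered libraries correlated at -0.395 to 0.434 in crypts, where 4 of 8 libraries correlated best with their own number, at 0.342 in KOIEC organoids and at 0.0669 in KOCAG organoids, where 4 of 4 did in each but 2 pairs are too few to settle it, so the numbers were not taken to pair the libraries.

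Members near 0 changed sign. With total counts only, crypt values became -0.0197 for Atp5a1, -0.0206 for Cox7a2, -0.000682 for Cox7b, -0.0519 for Atp5g3 and -0.0448 for Ndufb4, KOIEC organoid values -0.0284 for Cox6b1 and -0.0589 for Cox7a2l, and the KOCAG organoid value of Atp5a1 -0.00123. Without the crypt libraries over 2000 CPM of mitochondrial ribosomal RNA, they were -0.0055 for Sdhc, -0.0121 for Atp5a1, -0.0632 for Cox7a2, -0.0732 for Cox7b, -0.0268 for Atp5g3 and -0.0758 for Ndufb4. Cox6a1 in crypts became 0.00674 with DESeq2's size factors, 0.00173 with at least 10 counts in every library and 0.00712 with DESeq2. With each library left out, sign changes occurred in crypts for Atp5g3 (-0.0269 to 0.0818), Atp5s (-0.14 to 0.0353), Cox6a1 (-0.11 to 0.0626), Cox6b1 (-0.13 to 0.0388), Cox7a2 (-0.10 to 0.18), Cox7b (-0.013 to 0.23) and Ndufb4 (-0.0891 to 0.15), in KOIEC organoids for Atp5a1 (-0.11 to 0.0532), Atp5g1 (-0.20 to 0.091), Atp5s (-0.28 to 0.0848), Cox4i1 (-0.36 to 0.0341), Cox6a1 (-0.32 to 0.0704), Cox6b1 (-0.11 to 0.15), Cox7a2 (-0.26 to 0.00309), Cox7a2l (-0.30 to 0.25), Ndufa12 (-0.83 to 1.02) and Uqcrfs1 (-0.0147 to 0.17), and in KOCAG organoids for Atp5g1 (-0.0227 to 0.12), Cox6b1 (-0.0295 to 0.0805), Cox7a2 (-0.10 to 0.0246), Cox8a (-0.00179 to 0.0762), Ndufa12 (-1.23 to 0.18) and Ndufb2 (-0.28 to 0.12). Within the low class, 5 of 24 named crypt members had the other sign (Atp5a1 -0.03, Atp5g3 -0.08, Cox7a2 -0.06, Ndufa6 -0.03, Ndufb4 -0.06), and within the middle class 5 (Cox4i1 0.09, Cox6a1 0.16, Cox6b1 0.12, Cox8a 0.10, Ndufa2 0.10). No other member named by the stated rules changed sign under these alternatives, and members picked after their values were seen were not part of this check. With 2 libraries a group, the fits without 1 library assume that the lone library varies like the rest.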
